A study of Triticum aestivum with 24 samples.

Results

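The change of the wheat flag leaf from heading to grain filling was measured in the winter wheat cultivar TAM 111 while its plants were kept short of water. It rests on 6 of the 24 arrays of the series, chosen by their titles alone: 3 arrays of dry TAM 111 plants at grain filling and 3 of dry TAM 111 plants at heading. The whole series crosses the cultivars TAM 111 and TAM 112 with both stages and with dry and wet treatments, in 8 groups of 3 arrays. Every sample was total RNA of flag leaves from greenhouse plants, hybridised to an Affymetrix wheat array of its own. The treatments are described as 50% and 90% of field capacity, read here as dry and wet because the labels do not pair the levels with the names. To show where the dry TAM 111 change differs, it was set against the same stage change in wet TAM 111 leaves (3 grain filling and 3 heading arrays) and in dry TAM 112 leaves (3 grain filling and 3 heading arrays). The age of the plants in days, the number of plants behind a sample and whether replicates within a group came from different plants are not stated in the labels. The p-values therefore cover only the spread among the arrays of a group, and part of it may be technical.

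The flag leaf is the last leaf to unfold below the ear, and during grain filling it feeds the kernels with sugars from photosynthesis. Late in grain filling it dismantles its chloroplasts and exports the nitrogen held in their proteins. Cereals also store fructan, a polymer of fructose, in leaves and stems and break it down with fructan exohydrolases when sugar is needed. Drying plant cells accumulate LEA proteins and dehydrins, hydrophilic proteins that are thought to protect other proteins and membranes.

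Levels are given as linear MAS5 signals, which the authors had brought to the same overall brightness on each array. Changes are log2 differences of the signal plus 11.7, grain filling minus heading, with standard errors (SE) from limma. A change was called where the Benjamini-Hochberg adjusted p over all 37516 tested probe sets was below 0.05, and "rose" and "fell" are used of called changes only. The median signals of the 6 arrays ran from 63.0 to 75.2, and a level of 69.0, the median of all values in the series, served as the filter for testing. Arrays correlated at 0.967 to 0.971 within grain filling, at 0.961 to 0.970 within heading and at 0.928 to 0.954 between the stages (Pearson, across tested probe sets). Dry heading replicate 2 stood apart. On the principal component that separated the cultivars it lay at 10.6, against 51.0 and 52.6 for the other dry heading arrays and 59.9 to 62.0 for the dry grain filling arrays. TAM 112 arrays lay between -51.4 and -29.5, so that this array fell between the cultivars. Replicate 2 of wet TAM 111 did so at both stages too. RNA integrity was read from actin, as the log2 signal of its 3' probe set minus that of its 5' probe set. This stood at 2.94, 2.37 and -0.23 in the dry grain filling arrays, against 1.59, 1.78 and 0.91 in the dry heading arrays, so that the groups overlapped. Of 16 controls with a probe set at each end, 14 overlapped between the stages. Some of the 16 are bacterial and do not come from the leaf, so their overlap says nothing about the state of its RNA. The plant controls all overlapped, though ef1a and CYP86 had higher means at grain filling (ef1a at 0.068 against -1.09 at heading, and CYP86 at -2.07 against -3.05). The bacterial controls dap (2.95, 2.63 and 3.00 at grain filling, against 3.12, 3.17 and 3.35 at heading) and thr (2.88, 3.01 and 2.88, against 3.83, 3.37 and 3.28) were lower on every grain filling array. The part of these differences in the results was not tested.

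The markers went with the tissue label as far as they reach: they mark green tissue but cannot single out the flag leaf. All 7 photosynthesis genes with a name lay above the filter level on all 6 arrays, with summed signals of 202583 to 215363 at grain filling and 237968 to 271109 at heading. Of 15 named genes of grain storage and defence proteins, 11 were at or below that level on every array of both groups. The sums of the 15 were 6897 to 7607 at grain filling and 7069 to 7310 at heading, mostly from the bright avenin-like gene ALP. Without ALP they were 407 to 590 at grain filling and 308 to 609 at heading. Of 3 pollen and anther genes, 2 were at or below the level on every array. The sums of the 3 were 21981 to 23083 at grain filling and 23246 to 25111 at heading. Without the profilin PRO1, which many tissues express, the sums were 28.4 to 48.7 at grain filling and 32.5 to 84.9 at heading.

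Between heading and grain filling, dry TAM 111 leaves changed 6635 probe sets, 17.7% of those tested. About as many were higher at grain filling (3284, 8.75%) as were lower (3351, 8.93%). Large changes were more often rises: 1155 probe sets (3.08%) rose and 912 (2.43%) fell by at least 2-fold, and 294 (0.784%) rose and 138 (0.368%) fell by at least 4-fold. In 13796 probe sets (36.8%) the 3 grain filling arrays lay entirely above or below the 3 heading arrays. The share called grew with the mean signal, at 3.15%, 8.87%, 22.6% and 36.2% in 4 equal groups of the tested probe sets, ordered from the dimmest to the brightest. In 240 of the 37516 tested probe sets all grain filling arrays lay above the filter level and all heading arrays at or below it, and 136 of these were called. The reverse held for 320 probe sets, of which 125 were called. Both sets were picked for separating the stages on the same arrays, and the 3 bright arrays alone sufficed to pass the filter. Their calls are therefore not a separate result. Without dry heading replicate 2 and the intermediate wet arrays 4852 probe sets were called, 4586 of them shared with the full set. The count was 3868 without dry grain filling replicate 1 and 4189 without replicate 2.

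**Figure D1:**
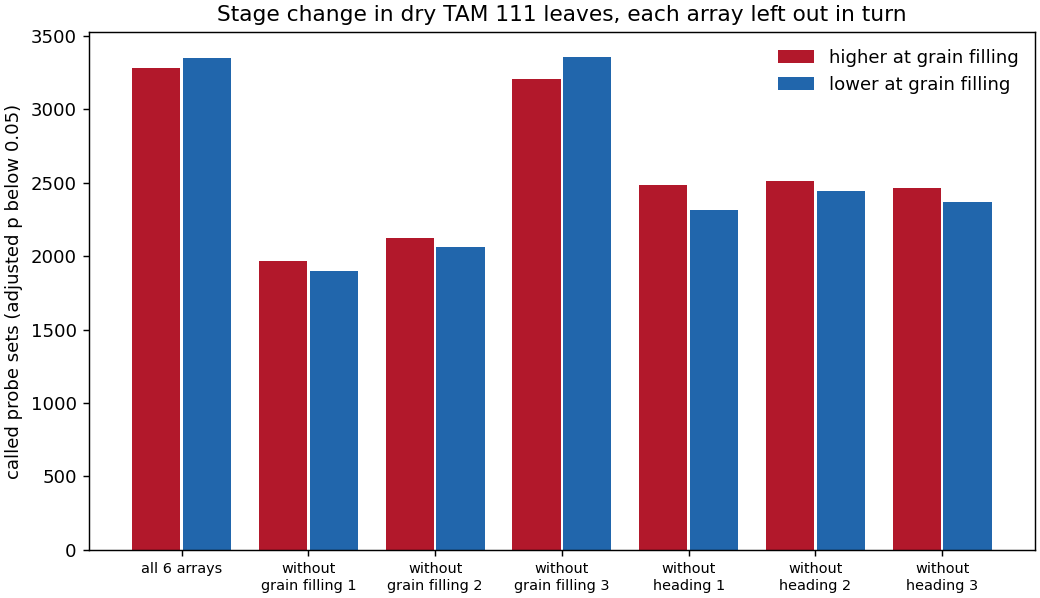
Number of called probe sets (vertical axis) that were higher (red) or lower (blue) at grain filling than at heading in dry TAM 111 leaves, with all 6 arrays and without each array in turn. Higher and lower calls stay nearly equal in number, and the total ranges from 3868 without grain filling replicate 1 to 6563 without grain filling replicate 3, against 6635 with all arrays.

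Most tested probe sets have no gene name here, and 102 genes carried more than a locus number. Of these 78 were tested, and 22 passed: 8 rose and 14 fell (17.7% of all probe sets were called). The median log2 change of the 78 was -0.14, against -0.05 for all tested probe sets. After quantile normalization 9 of the 78 rose and 8 fell, with a median of -0.03, against -0.02 for all tested probe sets. The share called grew with brightness, which these counts do not take into account. As the authors scaled the arrays, the 8 genes that rose were LEA1, PIMT, WZF1, XIP-I, COMT1, Glc1, tubb1 and 1-FEH. The 14 that fell were GA20ox1a, TaGlu1a, PR5, LTP3, wcH2B-8, FKBP70, Pgk-1, Hmgb3, PRK, PsbP, Tubb4, FBP, TEF1 and Trx-M. Under every alternative setting tried, which were 17 for each gene except GA20ox1a and TaGlu1a with 16, 9 of the 22 kept their call and direction: LEA1, PIMT, COMT1, Glc1, 1-FEH, LTP3, FKBP70, Pgk-1 and Hmgb3.

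LEA1, a late embryogenesis abundant gene, showed the largest change of the named genes. Its signal was 1668, 1618 and 1029 in the dry grain filling arrays, against 126, 35.0 and 74.5 in the dry heading arrays. The lowest grain filling array was far above the highest heading array, and the heading arrays lay near the filter level. The rise was 17.3-fold (limma, log2 change 4.11, SE 0.477, adjusted p = 6.52e-06). It came to 20.05-fold when 1 was added to the signals before taking logs, and to 12.1-fold when 46.8 was added. The other tested member of the LEA and dehydrin list, the dehydrin Rab15, had signals of 637, 332 and 232 at grain filling, against 323, 202 and 427 at heading. These groups overlapped, and the change was not called (log2 change 0.26, adjusted p = 0.763). It turned to -0.02 without dry heading replicate 2 and to -0.12 without dry grain filling replicate 1. The remaining 3 members of the list (COR410, EM and EMH2) were too dim to be tested.

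PIMT, a methyltransferase that repairs aged aspartyl residues in proteins, rose 2.64-fold. Its signal was 2567, 1924 and 1833 at grain filling and 1002, 631 and 758 at heading, with every grain filling array above every heading array (limma, log2 change 1.40, SE 0.218, adjusted p = 1.30e-04). The small heat shock gene hsp16.9A, whose product binds unfolding proteins, had signals of 117, 317 and 85.9 at grain filling, against 23.0, 37.6 and 30.7 at heading. The groups did not overlap, but the change of 1.94 (SE 0.692) was not called (adjusted p = 0.0561) and the heading signals lay below the filter level. FKBP70, a peptidyl-prolyl isomerase that works with heat shock proteins, fell 1.89-fold. It stood at 5524, 6443 and 6464 at grain filling and 12041, 10621 and 12194 at heading (log2 change -0.92, SE 0.148, adjusted p = 1.80e-04), again without overlap.

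Among the genes of fructan, sucrose and starch, 1 of 5 tested genes was called (17.7% of all tested probe sets were). The fructan exohydrolase 1-FEH, which releases fructose from stored fructan, gave 16845, 15382 and 13987 at grain filling, against 7534, 9276 and 7708 at heading. All grain filling arrays lay above all heading arrays, and the rise was 1.89-fold (limma, log2 change 0.92, SE 0.129, adjusted p = 4.92e-05). Another fructan exohydrolase, 6-FEH, had signals of 1711, 1710 and 1724 at grain filling and 1160, 1414 and 1546 at heading. These did not overlap either, yet the change of 0.33 (SE 0.261) was not called (adjusted p = 0.442), and its other 2 tested probe sets gave 0.43 and 0.06. The subunits of ADP-glucose pyrophosphorylase, the enzyme that commits glucose to starch, were at log2 changes of 0.16 (AGA.1, adjusted p = 0.347) and 0.14 (AGP-S, adjusted p = 0.344). The beta-amylase gene BMY1, whose product breaks starch down, gave -0.13 (adjusted p = 0.901), and the median of the list was 0.16, against -0.05 for all probe sets.

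COMT1, a methyltransferase of lignin synthesis, hardly varied among the grain filling arrays. Its signals were 13594, 13494 and 13587 there, against 6001, 5175 and 6936 at heading. The stages were fully separated and the rise was 2.26-fold (limma, log2 change 1.18, SE 0.156, adjusted p = 2.42e-05). SAHH, which removes the by-product of methylation reactions, stood at 35016, 34623 and 37364 at grain filling and 39277, 41480 and 42785 at heading. Its change of -0.21 was not called (adjusted p = 0.228) and turned to 0.04 after quantile normalization. PEAMT1, which makes the choline precursor phosphocholine, gave -0.42 (SE 0.321, adjusted p = 0.427).

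All 5 tested defence genes passed, 2 higher and 3 lower, where 8.75% of all tested probe sets were higher and 8.93% lower. Their median log2 change was -0.94, against -0.05 for all probe sets. The list was drawn with earlier results of these data known, so this count is not independent of them. The gene wci, the only tested member of a separate list of seed and defence inhibitors, was not called (limma, log2 change 0.01, adjusted p = 0.995). LTP3, a lipid transfer protein gene, had signals of 8380, 7194 and 10464 at grain filling, against 17576, 14945 and 16983 at heading. No grain filling array reached the lowest heading array, and the fall was 1.92-fold (limma, log2 change -0.94, SE 0.171, adjusted p = 6.05e-04), with another, dimmer probe set at -1.19 (adjusted p = 0.0295). Glc1, grouped here with defence by its name, rose 2.18-fold. It stood at 1780, 1215 and 1069 at grain filling and 562, 679 and 570 at heading, without overlap (log2 change 1.12, SE 0.214, adjusted p = 8.75e-04).

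The other 3 defence genes rested on less. The thaumatin-like gene PR5 had signals of 506, 440 and 759 at grain filling, against 1527, 1514 and 875 at heading (limma, log2 change -1.18, SE 0.400, adjusted p = 0.0451). The groups did not overlap, but the call ended without grain filling replicate 1 (adjusted p = 0.132), grain filling replicate 2 (0.162), heading replicate 1 (0.143) or heading replicate 2 (0.142). XIP-I, an inhibitor of fungal xylanases, stood at 911, 861 and 726 at grain filling and 472, 220 and 443 at heading (log2 change 1.18, SE 0.410, adjusted p = 0.0497). It lost the call without any 1 of the 6 arrays (adjusted p of 0.0540 to 0.237), and without heading replicate 2 the change was 0.84. Its other probe set gave 1.02 (adjusted p = 0.246). The beta-glucosidase gene TaGlu1a, whose product frees toxic aglycones from stored glucosides, lay below the filter level on all grain filling arrays, at 39.1, 6.22 and 45.7, against 77.7, 68.1 and 89.0 at heading (log2 change -1.26, adjusted p = 0.0316). Its call was lost without grain filling replicate 2 (adjusted p = 0.227) or heading replicate 1 (0.0762), 2 (0.0563) or 3 (0.0976).

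WZF1, a zinc finger gene, rose 2.39-fold. Its signals were 723, 507 and 418 at grain filling, against 218, 216 and 218 at heading, where the arrays hardly differed (limma, log2 change 1.26, SE 0.359, adjusted p = 0.0179). The call ended without grain filling replicate 1 (log2 change 1.05, adjusted p = 0.101), without the 3 intermediate TAM 111 arrays (adjusted p = 0.0581) and without the 4 numbered 2 (0.111).

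**Figure D2:**
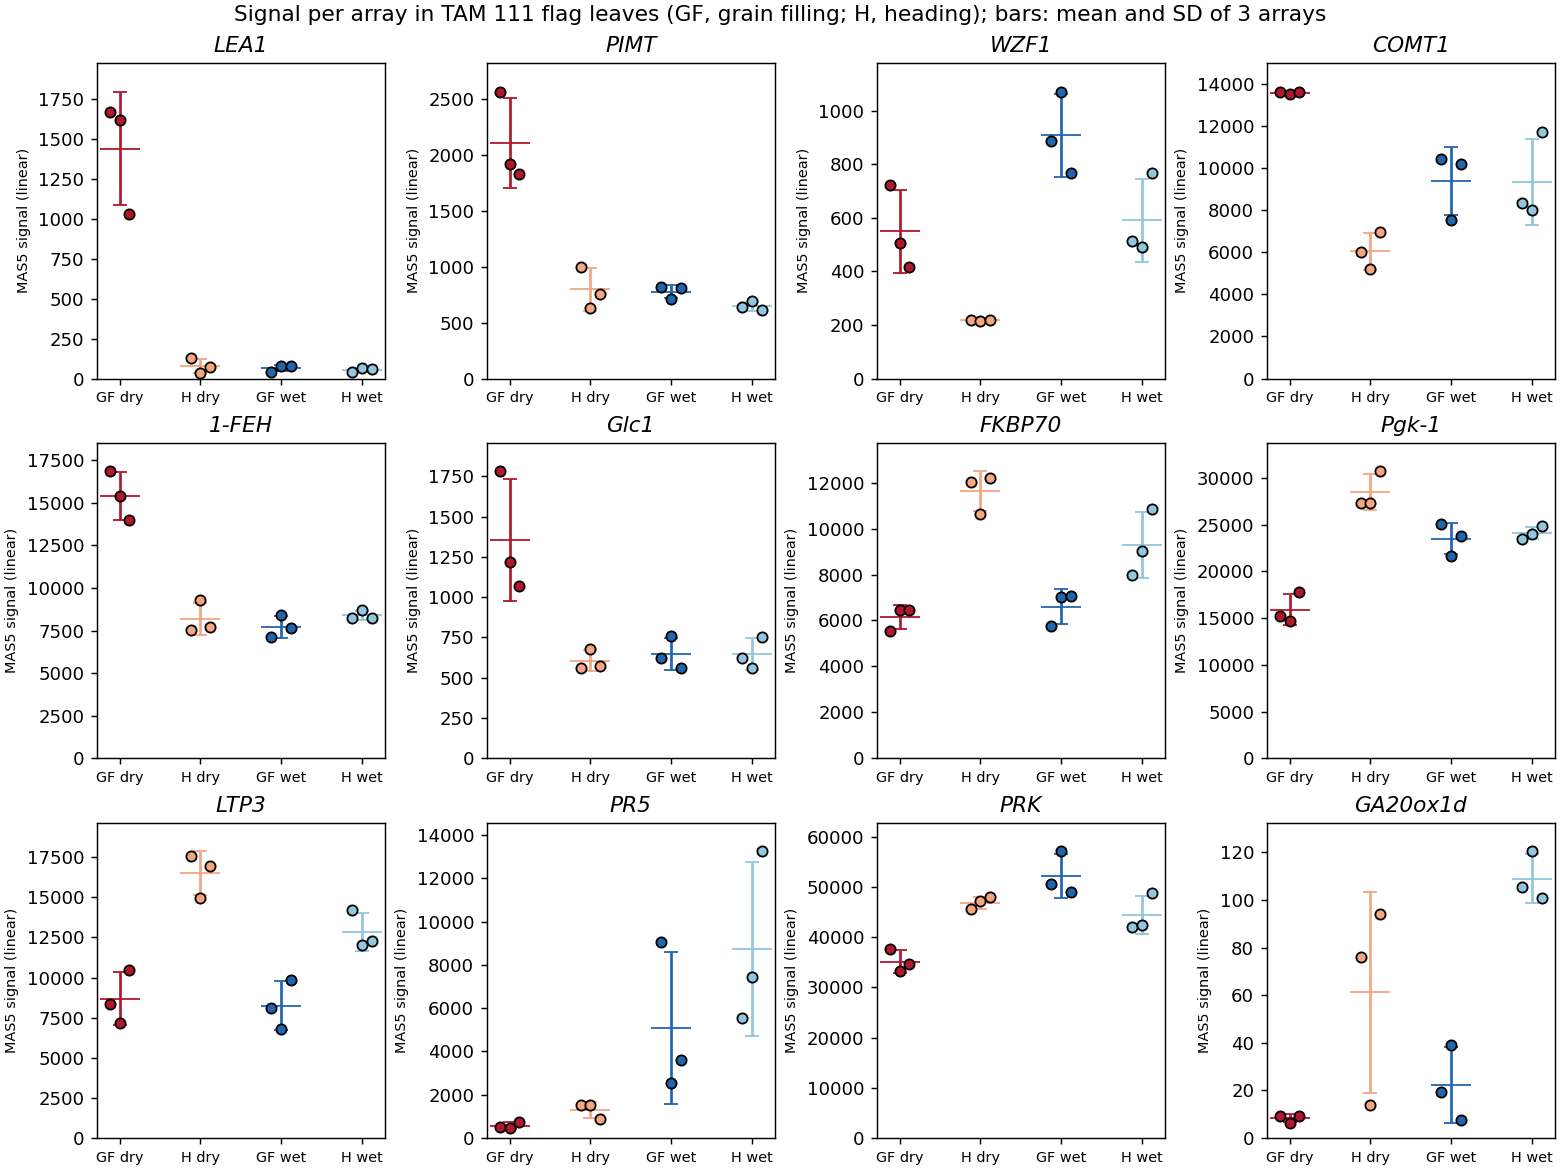
Linear MAS5 signal (vertical axis of each panel) of 12 genes in the TAM 111 flag leaf arrays, as points for each array with the mean and SD of 3 arrays, at grain filling (GF) and heading (H) in dry and wet leaves. LEA1, PIMT, COMT1, 1-FEH and Glc1 were highest in all 3 dry grain filling arrays, and FKBP70 and LTP3 were lower at grain filling than at heading in dry leaves.

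Photosynthesis genes gave small negative changes as the authors scaled the arrays. Of 7 tested genes, 4 fell (PRK, PsbP, FBP and Trx-M), where 8.93% of all tested probe sets did. The median was -0.32, against -0.05 for all probe sets. All 7 lay in the brightest of the 4 signal groups, where 36.2% of probe sets were called and 1741 of 9379 were called lower. After quantile normalization none of the 7 was called in limma, the median was -0.14, and petC (0.03) and rbcl (0.07) turned positive. Without the 4 TAM 111 arrays numbered 2 none was called either, while the median was -0.33 (adjusted p = 0.0894 for PRK and 0.0711 for PsbP). Phosphoribulokinase (PRK), which regenerates the carbon dioxide acceptor of the Calvin cycle, had signals of 37601, 33253 and 34560 at grain filling, against 45562, 47129 and 47940 at heading. The highest grain filling array lay below the lowest heading array, and the fall was 1.34-fold (limma, log2 change -0.42, SE 0.101, adjusted p = 0.00618; after quantile normalization -0.20, adjusted p = 0.214). PsbP, a protein of the oxygen-evolving complex of photosystem II, stood at 29171, 29556 and 32082 at grain filling and 36485, 40296 and 42980 at heading (log2 change -0.40, adjusted p = 0.00501). On its other tested probe set the stages were farther apart, at 10611, 11178 and 11737 at grain filling and 20473, 20147 and 19909 at heading (-0.85, adjusted p = 9.92e-04). In bulk leaf tissue fewer mesophyll cells and less RNA per cell cannot be told apart.

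The Calvin cycle phosphatase gene FBP and the thioredoxin gene Trx-M fell less, and their calls depended on single arrays. FBP had signals of 12159, 12100 and 12740 at grain filling, against 15434, 15291 and 15654 at heading (limma, log2 change -0.33, adjusted p = 0.0165). The stages did not overlap, but the call ended without grain filling replicate 1 or 2 (adjusted p = 0.0612 for each) or heading replicate 3 (0.0523). The size of the FBP change hardly moved there, at -0.32, -0.31 and -0.32, and it was -0.23 after quantile normalization. Trx-M gave -0.31 (adjusted p = 0.0157) and lost its call without the same arrays (0.101, 0.0590 and 0.0700). Its change was -0.25, -0.29 and -0.27 there, and -0.13 after quantile normalization. Of the genes that did not pass, PsbO, another protein of the oxygen-evolving complex, gave -0.32 (adjusted p = 0.105), the cytochrome b6f subunit petC -0.16 (0.349) and the large Rubisco subunit rbcl -0.10 (0.704). The plastid gene rbcl has 28 probe sets on the array. Of these 12 were tested, 8 gave negative changes, and none was called.

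The phosphoglycerate kinase gene Pgk-1, listed here with glycolysis by its symbol alone, fell 1.79-fold. The symbol does not say in which pathway or cell compartment its product works. Its signals were 15204, 14698 and 17852 at grain filling and 27331, 27381 and 30708 at heading, well separated (limma, log2 change -0.84, SE 0.148, adjusted p = 4.22e-04). The dehydrogenase gene GAPN, at 5613, 6300 and 6459 at grain filling, against 6995, 8461 and 7980 at heading, did not overlap between the stages either, but its change of -0.35 (SE 0.159) was not called (adjusted p = 0.146). The phosphofructokinase gene PFK gave 0.11 (adjusted p = 0.869).

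Among genes of chromatin, 2 of 5 tested genes fell and none rose (8.93% and 8.75% of all probe sets), with a median of -0.50, against -0.05 for all probe sets. Hmgb3, a DNA-bending high mobility group protein, had signals of 9139, 9100 and 9802 at grain filling, against 13664, 12482 and 13483 at heading. The stages were clearly apart on this probe set (limma, log2 change -0.50, SE 0.112, adjusted p = 0.00352) and on another, at 5423, 5311 and 5375 at grain filling and 7286, 7228 and 7127 at heading (-0.43, adjusted p = 0.00950). The histone H2B gene wcH2B-8 stood at 719, 644 and 757 at grain filling and 1248, 1631 and 1230 at heading (-0.93, SE 0.309, adjusted p = 0.0397). Its call ended without any 1 of the 6 arrays (adjusted p of 0.0600 to 0.143), while another wcH2B-8 probe set gave 376, 293 and 343 at grain filling, against 704, 882 and 823 at heading (-1.22, SE 0.177, adjusted p = 6.30e-05). Over all 15 tested probe sets of this list 9 fell and none rose, against 8.93% lower and 8.75% higher of all tested probe sets, though several probe sets share a gene. The genes wcH2B-6 (-0.99, adjusted p = 0.130), wcH2A-9 (-0.18, 0.685) and wcH2A-3 (0.16, 0.485) were not called on their brightest probe sets. A dimmer wcH2A-3 probe set disagreed with the brighter one and fell (-1.003, adjusted p = 0.0235). So did 2 other wcH2A-9 probe sets, a nearly as bright one (-0.91, adjusted p = 0.0308) and a dimmer one (-1.71, adjusted p = 0.0199).

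Of 7 tested translation genes 1 was called (17.7% of all tested probe sets were). The elongation factor gene TEF1 had signals of 20684, 18142 and 23660 at grain filling, against 25780, 25664 and 25559 at heading (limma, log2 change -0.31, SE 0.101, adjusted p = 0.0377). The stages did not overlap, but the call held only without grain filling replicate 3 when arrays were left out (0.0837 to 0.219 without the others), and it ended after quantile normalization (-0.12, adjusted p = 0.514). Another TEF1 probe set stood at 15221, 14657 and 18509 at grain filling and 21942, 21522 and 22952 at heading (-0.46, SE 0.0898, adjusted p = 0.00102). The ribosomal protein gene RPL9 gave -0.41 (adjusted p = 0.145) and the cap-binding factor gene eIF4E -0.16 (0.162).

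The tubulins, subunits of microtubules, did not move together: 1 of 6 rose and 1 fell (8.75% and 8.93% of all tested probe sets did). The beta-tubulin gene tubb1 had signals of 4466, 4040 and 5563 at grain filling, against 2430, 1712 and 2837 at heading, with no overlap (limma, log2 change 1.03, SE 0.236, adjusted p = 0.00436). Its call ended without the 4 TAM 111 arrays numbered 2 (0.92, adjusted p = 0.0589). Tubb4 stood at 2343, 2130 and 2258 at grain filling and 2840, 3106 and 2840 at heading (-0.38, SE 0.119, adjusted p = 0.0286), and lost its call without any 1 of the 6 arrays (0.0535 to 0.107). The genes tubb2 (0.54, adjusted p = 0.209) and tubb3 (-0.35, adjusted p = 0.114) were not called. The alpha-tubulin gene TUBA (-0.02) and Tubb5 (-0.05) were not called either.

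The gibberellin 20-oxidases, which make the precursors of active gibberellins, were dim throughout. GA20ox1a had signals of 15.7, 4.71 and 23.3 at grain filling, against 78.1, 95.3 and 84.4 at heading. All heading arrays lay above the filter level and all grain filling arrays below it (limma, log2 change -1.96, SE 0.642, adjusted p = 0.0378), but the call ended without grain filling replicate 1 (0.0843) or 2 (0.150) or heading replicate 1 (0.0770), 2 (0.0984) or 3 (0.0849). On its brightest probe set GA20ox1d stood at 9.43, 6.44 and 9.09 at grain filling and 76.0, 13.6 and 94.1 at heading (-1.63, SE 0.571, adjusted p = 0.0524), with heading replicate 2 well below the others of its group. Another GA20ox1d probe set gave 6.11, 14.7 and 13.5 at grain filling, against 60.2, 109 and 74.4 at heading, and was called (-1.995, SE 0.376, adjusted p = 7.99e-04). GA20ox1b gave -1.16 (adjusted p = 0.122).

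None of 6 tested redox and detoxification genes was called in limma (17.7% of all probe sets were). The phytochelatin synthase gene TaPCS1, whose product makes metal-binding peptides, was at 590, 675 and 1047 at grain filling and 554, 511 and 391 at heading (log2 change 0.63, SE 0.227, adjusted p = 0.0612). The glutathione transferase gene GSTZ1 gave -0.30 (adjusted p = 0.0906), the peroxiredoxin gene TaPrx1 -0.28 (0.241), the glyoxalase gene lgul -0.26 (0.402), the catalase gene CAT1 -0.19 (0.189) and PER1 -0.02 (0.980). A nearly as bright GSTZ1 probe set gave 0.14 (adjusted p = 0.376), with every grain filling array above every heading array. A dimmer GSTZ1 probe set gave -0.29 (adjusted p = 0.213), and the other lgul probe set 0.04 (0.906). Of transport genes the proton pump gene ha1 gave -0.17 (adjusted p = 0.188; 0.06 after quantile normalization) and the vacuolar channel gene TPC1 0.09 (0.741). The tested grain protein genes, the pollen and anther genes PRO1 and raftin1b and the inhibitor gene wci were not called either (adjusted p of 0.245 to 0.995).

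**Figure D3:**
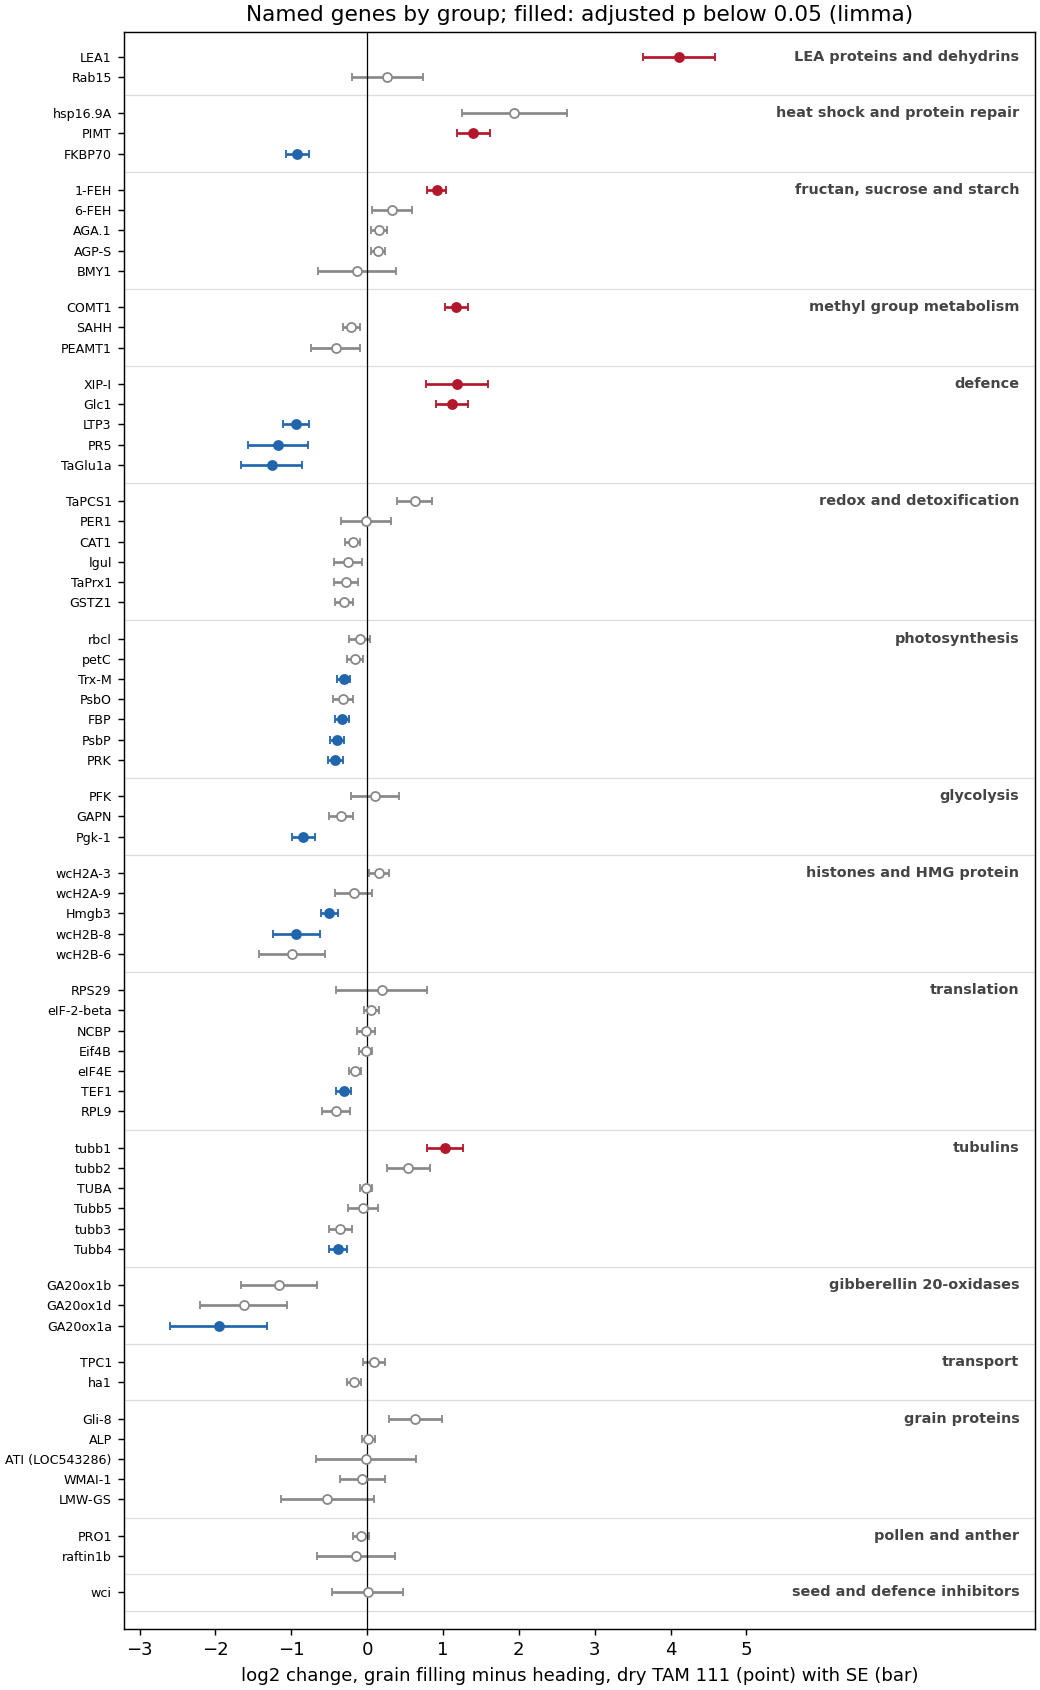
Log2 change from heading to grain filling in dry TAM 111 leaves (horizontal axis, point, with SE as the bar) of tested named genes, by group. The 13 tested named genes outside these groups, among them the called gene WZF1, are not drawn. Filled points are called genes, red where higher and blue where lower at grain filling. LEA1 stands alone at 4.11, and the photosynthesis genes form a narrow band between -0.42 and -0.10.

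The largest changes belonged to probe sets without a gene name. Ta.14617.1.S1_at had signals of 14599, 11564 and 7357 at grain filling, against 43.9, 101 and 186 at heading, a 100.1-fold rise (limma, log2 change 6.65, adjusted p = 9.23e-07). Ta.14259.1.S1_at stood at 4579, 4131 and 1742 at grain filling and 20.6, 34.5 and 91.2 at heading (60.1-fold, adjusted p = 1.83e-05), and TaAffx.100380.2.A1_at at 4647, 5089 and 1168 at grain filling and 15.8, 75.3 and 94.5 at heading (47.9-fold, adjusted p = 3.13e-05). In these 3 probe sets, as in LEA1, grain filling replicate 3 was the lowest of its group. The deepest fall was that of Ta.28255.1.A1_at, at 33.8, 42.7 and 66.9 at grain filling, against 2299, 2118 and 1316 at heading (32.3-fold lower, adjusted p = 2.72e-10). Ta.28351.1.S1_s_at, which carries only the locus name LOC542989, stood at 47.3, 8.18 and 20.2 at grain filling and 647, 627 and 710 at heading (20.1-fold lower, adjusted p = 6.13e-07), and Ta.11954.1.A1_at at 86.8, 21.7 and 54.0 at grain filling and 1097, 1956 and 782 at heading (20.01-fold lower, adjusted p = 1.00e-07). Each of these 6 separated the stages on all arrays, and a group of each lay near the filter level, so that the folds depend on the pseudocount. With 1 and with 46.8 added to the signals, the rises in the order given were 113-fold and 73.8-fold, 77.6-fold and 35.7-fold, and 60.9-fold and 30.03-fold. The falls were 39.6-fold and 20.3-fold, 31.4-fold and 10.1-fold, and 24.9-fold and 12.7-fold. Of the 847 tested probe sets whose gene has a locus number only, 271 were called (32%, against 17.7% of all tested probe sets), 123 higher (14.5%) and 148 lower (17.5%) at grain filling. Brightness, with which the share called grew, was not taken into account in these shares.

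In wet TAM 111 leaves the same interval changed far fewer probe sets. In dry leaves 6635 were called, against 1028 (2.74%) in wet leaves, with 499 called in both with the same sign. That is 7.52% of the dry calls and 48.5% of the wet ones, and 26 were called with opposite signs. Across all tested probe sets the dry and wet stage changes, which share no arrays, correlated at 0.29 (Pearson, across probe sets, which are not independent). Whether the change differed with water was tested directly: the difference, dry minus wet, passed for 1152 probe sets (3.07%), 659 (1.76%) higher and 493 (1.31%) lower. Of these, 952 were also called in dry leaves, 574 higher and 378 lower at grain filling, and 54 of the 952 were called in wet leaves as well. Another 124 were called in wet leaves but not in dry leaves. These counts rest heavily on the TAM 111 arrays numbered 2. Without the 3 intermediate ones the wet count was 217, the shared count 121 and the count of differences 174. Without all 4, which include dry grain filling replicate 2 that lay with its group, these counts were 167, 93 and 52.

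LEA1, 1-FEH and COMT1, which rose in dry leaves, were not called in wet ones. LEA1 had wet signals of 40.8, 75.5 and 76.2 at grain filling and 42.2, 67.7 and 56.5 at heading (limma, log2 change 0.15), and the difference, dry minus wet, was 3.95 (SE 0.675, adjusted p = 0.00312). For 1-FEH the wet signals were 7092, 8397 and 7676 at grain filling, against 8250, 8696 and 8257 at heading (-0.12; difference 1.04, adjusted p = 0.00363). COMT1 was at 10410, 7545 and 10181 at grain filling and 8311, 7980 and 11686 at heading in wet leaves (0.01; difference 1.16, adjusted p = 0.00618). In wet leaves the stages overlapped in all 3 genes. The differences of LEA1 and 1-FEH lost their calls in 1 setting, without the 4 arrays numbered 2 (adjusted p = 0.126 and 0.0562), and that of COMT1 in 2, there (0.126) and without the 3 intermediate arrays (0.0533).

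Differences in the stage change with water were also called for PIMT (1.14, adjusted p = 0.0456), Glc1 (1.12, 0.0454), Pgk-1 (-0.80, 0.0372), PRK (-0.65, 0.0150), lgul (-0.99, 0.0424) and TEF1 (-0.55, 0.0376) in limma. Pgk-1 had wet signals of 25058, 21694 and 23807 at grain filling and 23517, 23967 and 24834 at heading, which overlapped. PRK stood at 50524, 57112 and 48942 at grain filling, against 41966, 42315 and 48762 at heading in wet leaves. There every grain filling array lay above every heading array, opposite to dry leaves, though the wet change of 0.24 was not called (adjusted p = 0.258). The glyoxalase gene lgul was at 5931, 5309 and 7146 at grain filling, against 6839, 6890 and 8125 at heading in dry leaves. In wet leaves it rose, at 7142, 5172 and 6398 at grain filling and 3708, 3529 and 3863 at heading (0.74, adjusted p = 0.0348). PRK lost its call in 5 of 23 settings: without dry grain filling replicate 2 (adjusted p = 0.0539), after quantile normalization (-0.33, 0.240), without the variance trend (0.0503), without the 3 intermediate arrays (0.160) and without the 4 numbered 2 (0.306). The other 5 each lost it on leaving out any of 10 of the 12 TAM 111 arrays. The exceptions were dry grain filling replicate 3 for all 5, with wet grain filling replicate 2 for Glc1, lgul and Pgk-1, dry heading replicate 1 for PIMT and wet heading replicate 3 for TEF1. All 5 also lost it without the filter, without the variance trend, without the 3 intermediate arrays and without the 4 numbered 2. All but lgul lost it after quantile normalization, where the TEF1 difference was -0.28 (adjusted p = 0.354).

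Other genes that changed in dry leaves were not shown to differ from wet leaves. LTP3 fell in wet leaves as well, at 8101, 6784 and 9874 at grain filling and 14211, 12049 and 12270 at heading (limma, log2 change -0.65, adjusted p = 0.0428), with a difference of -0.29 (adjusted p = 0.607). FKBP70 gave -0.49 in wet leaves (adjusted p = 0.0825; difference -0.43, adjusted p = 0.297). WZF1 gave 0.63 (0.441; difference 0.63, adjusted p = 0.588). PR5 was much brighter in wet leaves, at 9074, 2554 and 3613 at grain filling and 5528, 7453 and 13256 at heading, and its difference in stage change was -0.28 (adjusted p = 0.870).

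**Figure D4:**
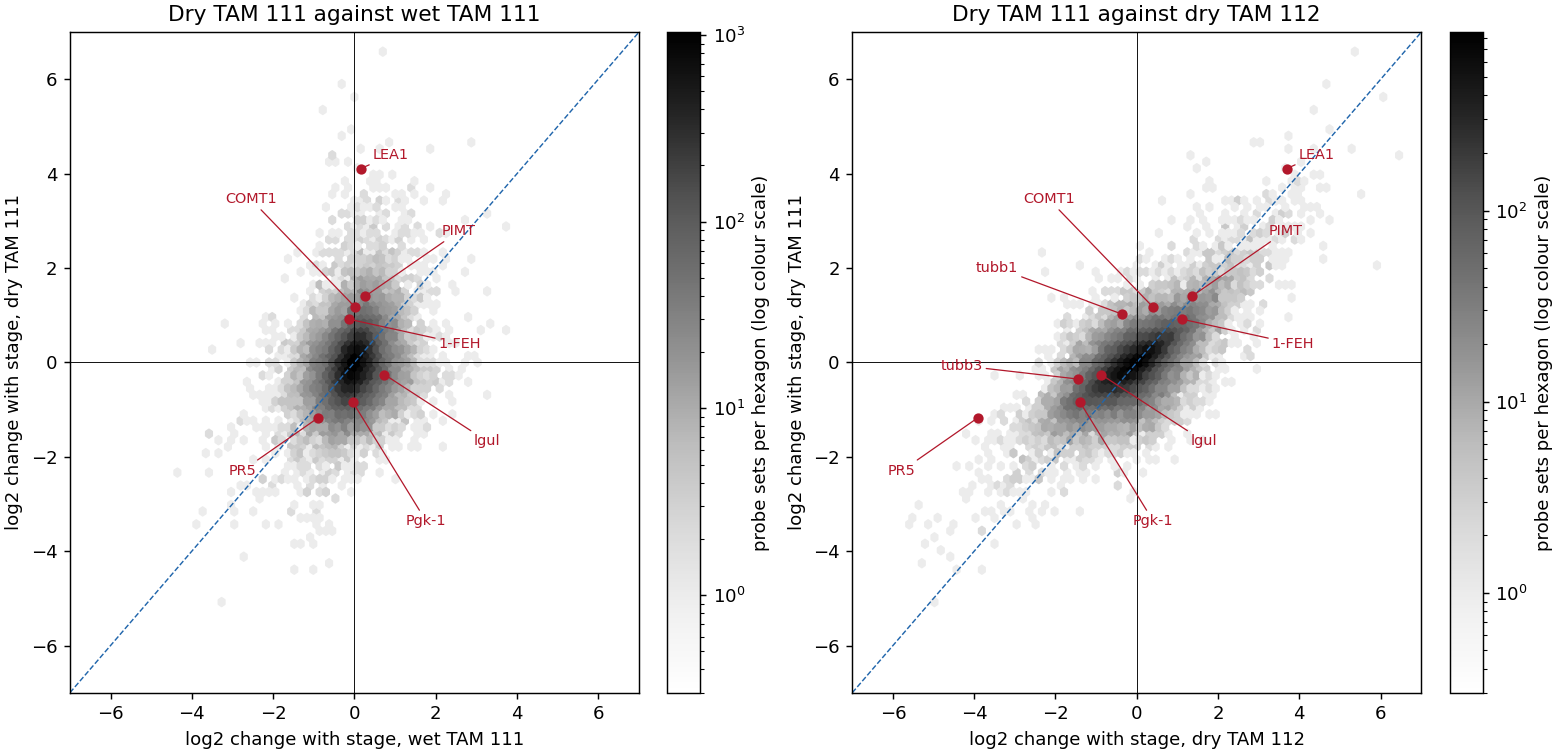
Log2 stage change of each tested probe set in dry TAM 111 leaves (vertical axes) against that in wet TAM 111 leaves (left) and in dry TAM 112 leaves (right), as hexagons shaded by the number of probe sets on a log scale, with named genes in red and the line of equal change dashed. Against wet leaves LEA1, PIMT, COMT1 and 1-FEH lie near 0 on the horizontal axis (r = 0.29), and against TAM 112 the changes go largely together (r = 0.71).

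The dry stage change of TAM 111 ran largely parallel to that of TAM 112. Limma called 12327 probe sets (32.9%) in dry TAM 112 leaves, 5395 (14.4%) higher and 6932 (18.5%) lower. Called changes of at least 2-fold numbered 4873 in dry TAM 112, against 2067 in dry TAM 111. Of the 6635 called in TAM 111, 5562 were also called in TAM 112 with the same sign (83.8% of the TAM 111 calls and 45.1% of the TAM 112 calls), 2710 higher and 2852 lower, and 8 with opposite signs. The shared count was 2451 without the 4 TAM 111 arrays numbered 2. The changes in the cultivars, which share no arrays, correlated at 0.71 across probe sets, and 6486 of the TAM 111 calls had the same direction in TAM 112. LEA1 rose by 4.11 on the log2 scale in TAM 111 and by 3.69 in TAM 112, PIMT by 1.40 and 1.35, 1-FEH by 0.92 and 1.12 and Glc1 by 1.12 and 1.51. Pgk-1 changed by -0.84 in TAM 111 and -1.40 in TAM 112, FKBP70 by -0.92 and -0.98 and LTP3 by -0.94 and -0.88. COMT1, which rose by 1.18 in TAM 111, gave 0.40 in TAM 112 (adjusted p = 0.0541), with a difference of 0.78 (SE 0.220, adjusted p = 0.205) that was not called.

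The difference between the cultivars, TAM 111 minus TAM 112, passed for 2 probe sets (0.00533%) in limma, with 3988 at an unadjusted p below 0.05. Neither has a gene name. Ta.9172.1.S1_at rose in TAM 111, with 711, 277 and 677 at grain filling and 71.4, 61.1 and 198 at heading, and fell in TAM 112, with 58.2, 36.1 and 28.1 at grain filling and 395, 206 and 175 at heading. The stages did not overlap in either cultivar (difference 4.59, SE 0.694, adjusted p = 0.0251). TaAffx.91995.1.A1_at gave 2367, 1752 and 2849 at grain filling and 1819, 1454 and 2085 at heading in TAM 111, where the stages overlapped, and fell in TAM 112, with 658, 483 and 545 at grain filling and 1309, 1145 and 1198 at heading (difference 1.47, SE 0.223, adjusted p = 0.0251). Among named genes the smallest p were those of the tubulins tubb2 and tubb3 and of PR5, and none was called. In TAM 111 tubb2 changed by 0.54 on the log2 scale and tubb3 by -0.35, while in TAM 112 tubb2 fell by 1.52 and tubb3 fell by 1.44 (differences 2.07 and 1.08, adjusted p = 0.0868 for each). PR5 fell by 1.18 in TAM 111 and fell by 3.92 in TAM 112 (difference 2.74, adjusted p = 0.103). The number of probe sets that passed ranged from 0 to 1482 when single arrays were left out, the highest without TAM 112 grain filling replicate 3.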

How the data were processed

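RNA of 24 flag leaf samples was hybridised with 1 array per sample. Per the submitters' processing notes the authors made the values with MAS5, whose version is not given here. The deposited values are linear intensity values, 1 for each probe set on each array, with a 2% trimmed mean of 500.1 on every array. Of 61290 probe sets, 111 controls were left out, and the 37516 with a signal above 69.0 (the median) in at least 3 arrays were tested. Before taking log2, 11.7 (the 20th percentile of the signals) was added. A linear model with 8 group means over all 24 arrays was fitted in R 4.3.3 using limma 3.58.1, eBayes and a variance trend (16 residual and 5.53 prior degrees of freedom), and tested on simulated data. The number of arrays limits the precision.

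The stage change in dry TAM 111 leaves was the main contrast. Its differences from wet TAM 111 and from dry TAM 112 leaves were tested as contrasts of the same model. The labels number the replicates alike in each group without saying that a number marks a shared source, and the numbers were not used as pairs. Alternatives were other pseudocounts (1 and 46.8), quantile normalization, no filter or one at 385.6, array weights, no variance trend, the replicate number as a block, only the arrays compared, and fits without each single array. Leaving out the intermediate arrays or those numbered 2 was chosen after seeing the data.

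Gene names were taken from GEO's platform annotation, in which 1273 probe sets have 1 of 771 genes. The annotation of IWGSC CS RefSeq v2.1 held 770 of these genes and gave no gene descriptions here. Lists were therefore drawn from gene symbols. The groups, members and lists were chosen with earlier results of these data known. A gene stands by its brightest tested probe set. Named by rule were the 10 largest rises and falls among called genes with a mean above 69.0, 3 members of each list with the smallest p, 5 and 3 genes with the smallest p for the differences with water and between cultivars, and 3 unnamed probe sets in each direction. All other genes and probe sets given were added after their values were seen. No genome position was used.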

Additional observations from a re-analysis of the deposited data

Results flagged for a closer look

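On their brightest tested probe sets, the stage change of 9 named genes differed between dry and wet TAM 111 leaves in limma's contrast of the changes, dry minus wet. On the log2 scale the difference was 3.95 for LEA1, 1.16 for COMT1, 1.14 for PIMT, 1.12 for Glc1 and 1.04 for 1-FEH. It was -0.99 for lgul, -0.80 for Pgk-1, -0.65 for PRK and -0.55 for TEF1. Dimmer probe sets of GSTZ1 (0.62, adjusted p = 0.0191), RPS29 (-1.44, 0.0127) and TEF1 (-0.52, 0.0286) also passed in limma. The dimmer lgul probe set did not (-0.68, adjusted p = 0.150). None of the 9 kept its call in every one of 23 settings. For LEA1 it ranged from 3.44 to 4.33 and for 1-FEH from 0.97 to 1.19.

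Between cultivars, the dry stage change of 2 probe sets without a gene name differed in limma, TAM 111 minus TAM 112. The difference was 4.59 for Ta.9172.1.S1_at, which rose by 2.27 in TAM 111 and changed by -2.32 in TAM 112. It was 1.47 for TaAffx.91995.1.A1_at, which gave 0.36 in TAM 111 (adjusted p = 0.122) and -1.11 in TAM 112 (adjusted p = 1.30e-05).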

How the results depend on the processing

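Probe sets called for the dry TAM 111 stage change were recounted under the other pseudocounts, normalization, filters, array weights, variance model and replicate block. The count stayed within 1.5 times of 6635, from 5709 without the filter to 9563 with array weights (7107 with the block). It was 2757 without the 4 TAM 111 arrays numbered 2 and 3868 to 6563 without single arrays. The count for the difference with water (1152) was 2518 with array weights, 623 without the variance trend, 174 without the 3 intermediate arrays, 52 without the 4 arrays numbered 2 and 456 to 1403 without single arrays (1581 with the block). The count for the cultivar difference (2) was 5 with a pseudocount of 1, 7 with the stricter filter, 831 with array weights and 12 with the replicate block, 0 after quantile normalization, without the variance trend, without the 3 intermediate arrays or with only the arrays compared, and 0 to 1482 without single arrays. Deviations from the group means were correlated between the stages for same-numbered arrays (numbers 1, 2 and 3). The values were 0.00126, 0.0125 and 0.0202 in dry TAM 111, 0.0608, 0.215 and 0.0203 in wet TAM 111 and 0.0467, -0.0175 and 0.0804 in dry TAM 112. Only number 2 of wet TAM 111 passed 0.1. In dry TAM 111 the highest correlation with another number was larger each time, at 0.03809, 0.02335 and 0.03444. The block ended the call of PR5 (adjusted p = 0.0528) and of no other gene called for the dry stage change. Of the 22 called genes 13 lost the call without the 4 arrays numbered 2, 8 without the 3 intermediate arrays, 6 after quantile normalization, 6 without the filter and 6 without the variance trend. The cause was not tested. Signs turned for 14 of 60 genes, none of them called in limma (adjusted p of 0.188 or more). These were wci (-0.0095 with the larger pseudocount), SAHH (0.037), PRO1 (0.17), ha1 (0.060), petC (0.029), rbcl (0.070), PER1 (0.063) and TUBA (0.051) after quantile normalization, WMAI-1 (0.11) and PER1 (0.0096) with array weights, WMAI-1 (0.049), PER1 (0.081), Rab15 (-0.017) and raftin1b (0.061) without the intermediate arrays, and LMW-GS (0.086), raftin1b (0.39), BMY1 (0.20), PER1 (0.012) and TUBA (0.056) without the arrays numbered 2. Without single arrays the values ran from -0.24 to 0.27 for WMAI-1, -0.12 to 0.58 for Rab15, -0.43 to 0.18 for raftin1b, -1.04 to 0.095 for LMW-GS, -0.43 to 0.29 for wci, -0.29 to 0.097 for BMY1, -0.13 to 0.081 for PER1, -0.065 to 0.046 for TUBA and -0.12 to 0.075 for Tubb5. Signals near the filter level limit the folds of dim probe sets.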
